A study of Homo sapiens with 8 samples.

Results

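Poly(A) sites were examined in 46 genes of 4 DNA repair pathways: 17 genes of nucleotide excision repair, 16 of base excision repair, 6 of mismatch repair and 7 of non-homologous end joining. The rule for the genes was their known role in repair and used no measured value, although earlier results of these data were known when it was set. All 46 belonged to the 12206 protein-coding genes that had an intron and at least 1 peak at an annotated transcript end, out of 18302 protein-coding genes with an intron in the GENCODE annotation of GRCh38.

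Poly(A) 3′-sequencing reads the junction of a transcript and its poly(A) tail, so that a pile of reads marks a place where transcripts end. It was applied to Kelly, a human neuroblastoma cell line, and to Kelly E9R, a resistant line derived from it under rising doses of another CDK12 inhibitor, whose CDK12 carries a substitution of the cysteine that THZ531 attaches to. Both lines received either DMSO, the solvent, or THZ531, which inhibits the kinases CDK12 and CDK13, for 6 h. The sample labels give its dose as 400 nM, whereas the study's methods name a lower dose for these lines, so the dose is uncertain. There were 2 libraries in each of the 4 groups (Kelly DMSO, Kelly THZ531, Kelly E9R DMSO and Kelly E9R THZ531). The resistant cells are 1 derived line, and nothing in the labels separates cultures from technical repeats.

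The values described here come from 1 list of peaks that the authors called on the reads of all 8 libraries merged. Kelly therefore cannot be compared with Kelly E9R, nor THZ531 with DMSO, no value has a replicate, and the depth of each library is unknown. The height of a peak is given as its pileup, the reads stacked at its summit, recovered from the deposited fold enrichment and −log10 p. How duplicate reads were treated is not stated, so a pileup may count distinct read positions instead of all reads. The highest pileup in the whole list was 187. The strongest peak below means the one with the highest pileup, which need not hold the most reads, and a pileup is not a transcript level. Peaks have no strand, and each was read on the strand of the gene it lay in. All 9 markers of adrenergic neuroblastoma examined had a peak at a transcript end, among them HAND2 and MYCN. So did 3 of 4 fibroblast markers (not DCN), 1 of 4 epithelial markers (EPCAM), 0 of 4 leukocyte markers and 0 of 2 hepatocyte markers.

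These pathways repair different lesions. Nucleotide excision repair cuts out a short stretch of strand around bulky damage such as ultraviolet photoproducts, and is started either by the XPC and DDB2 damage sensors or, on transcribed strands, by ERCC6 and ERCC8 at a stalled RNA polymerase. Base excision repair begins with a glycosylase that removes a single altered base, after which APEX1 cuts the strand and POLB, XRCC1 and a ligase fill and seal the gap. Mismatch repair removes replication errors recognised by MSH6- and MSH3-containing dimers, with EXO1 as the exonuclease, and end joining ligates double-strand breaks held by the Ku proteins XRCC5 and XRCC6. A transcript that ends in an intron lacks the exons downstream of it, and the A-rich sequences common in introns can also be primed by oligo(dT), which is why the sequence around each peak is given with its height.

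Some of the intronic sites are shown first, as examples of 2 kinds of peak. Each line holds the 30 bases before the 3′ end of a peak and the 20 bases after it, on the strand of the gene. Capitals mark a poly(A) signal motif in the first 30 bases, or the longest run of at least 6 A in the last 20. The first 6 peaks have a motif but no A-rich sequence downstream, a kind termed motif-only here, and the other 3 have an A run at or after the 3′ end and no motif. The 2 kinds do not cover all peaks. Of 232 intronic peaks, 129 had a motif, 171 had A-rich sequence downstream and 49 were motif-only, so many had both features.

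XRCC5 intron 16 (chr2:216148796-216148939, + strand): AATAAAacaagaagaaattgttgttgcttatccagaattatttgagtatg
XRCC5 intron 4 (chr2:216115046-216115153, + strand): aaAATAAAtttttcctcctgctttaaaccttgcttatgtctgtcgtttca
EXO1 intron 11 (chr1:241870680-241870785, + strand): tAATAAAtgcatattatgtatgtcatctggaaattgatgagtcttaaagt
EXO1 intron 3 (chr1:241850182-241850375, + strand): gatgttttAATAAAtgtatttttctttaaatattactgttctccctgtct
ERCC6 intron 5 (chr10:49518940-49519041, − strand): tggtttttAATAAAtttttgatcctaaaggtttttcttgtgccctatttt
PARP1 intron 2 (chr1:226393921-226394020, − strand): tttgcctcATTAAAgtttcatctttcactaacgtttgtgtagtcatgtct
XRCC6 intron 5 (chr22:41638680-41638781, + strand): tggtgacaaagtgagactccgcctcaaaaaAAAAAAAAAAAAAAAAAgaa
XRCC1 intron 1 (chr19:43572938-43573047, − strand): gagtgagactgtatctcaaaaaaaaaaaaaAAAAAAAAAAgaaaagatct
MUTYH intron 1 (chr1:45339219-45339324, − strand): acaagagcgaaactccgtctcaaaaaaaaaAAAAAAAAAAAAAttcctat

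In the repair genes and the 4 kb after them lay 425 retained peaks, with pileups from 3 to 58. Of these, 74 were at a transcript end (from 200 bases before to 600 bases after an annotated end), 104 in other exonic sequence, 232 in introns and 15 after the end. Pileups were highest at transcript ends (median 20), lower in exons (13.5) and lowest in introns (9). All 46 genes had a transcript end peak, as did 66.7% of all protein-coding genes with an intron. The strongest peak of the gene lay at a transcript end in 30 genes (65.2%), in an exon in 10 (21.7%) and in an intron in 6 (13.0%). Over all 12206 genes these shares were 70.9%, 16.7% and 12.4%.

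The number of intronic peaks followed gene length. Intronic peaks were found in 39 of the 46 genes (84.8%, against 76.0% of all genes), and their number correlated with length with a Spearman coefficient of 0.824 over the 46 genes, close to the 0.830 over 12160 other genes. This coefficient is a description across genes, which share the same merged libraries. Each gene was therefore set against the 200 other genes nearest to it in length. Of the 46 repair genes, 18 (39.1%) had more intronic peaks than the median of these genes, 14 had the same number and 14 had fewer. Among all 12206 genes, 39.0% lay above their own median, a share close to that of the repair genes.

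**Figure D1:**
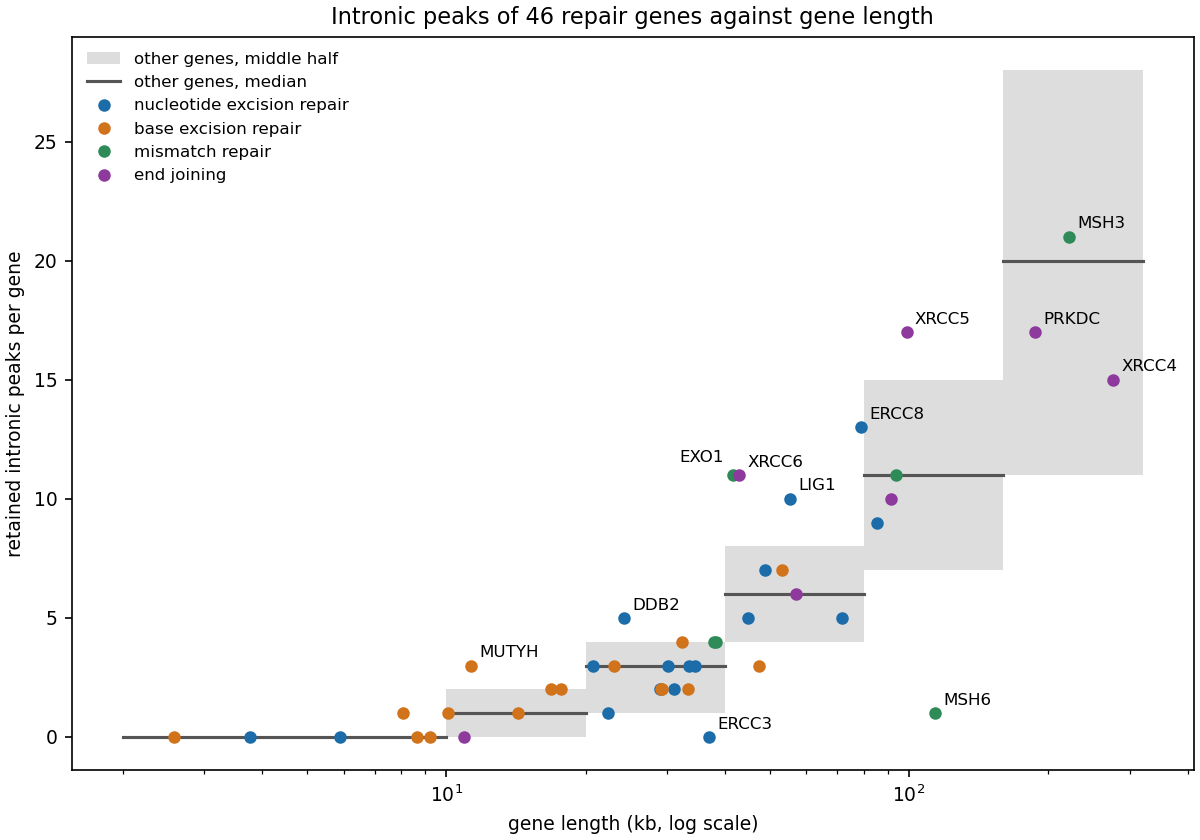
Retained intronic peaks per gene (y axis) against gene length in kb (x axis, log scale) for the 46 repair genes, coloured by pathway. Grey boxes span the lower to the upper quartile of other genes in a length range, with a black line at their median; XRCC6, EXO1, XRCC5, LIG1, ERCC8, DDB2, MUTYH and NTHL1 sit above the boxes, ERCC3, MSH6 and PARP1 below.

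The 4 pathways differed in gene length. Genes of base excision repair were the shortest (median 17.3 kb) and those of end joining the longest (91.5 kb), with nucleotide excision at 33.5 kb and mismatch repair at 67.6 kb. The median number of intronic peaks per gene was 2 in base excision, 3 in nucleotide excision, 7.50 in mismatch repair and 11 in end joining. Relative to intron length these differences were small, with 10.8, 12.1, 10.1 and 10.4 intronic peaks per 100 kb of intron. The value over other genes was 9.45, pooled over genes of up to 2474 kb and so not matched for length. Members above the median of genes of similar length numbered 7 of 16 in base excision, 6 of 17 in nucleotide excision, 2 of 6 in mismatch repair and 3 of 7 in end joining. With 6 to 17 genes in a pathway these shares cannot be ranked. Among 30 further genes of the same pathways with a transcript end peak, such as the replication factors of mismatch resynthesis, 13 lay above, 9 at and 8 below their median.

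The classes of the peaks also differed between pathways. Transcript ends held 30.6% of the peaks within base excision genes (95% Wilson interval 21.8 to 41) and 6.84% of those within end-joining genes (3.51 to 12.9), whereas introns held 38.8% (29.2 to 49.5) and 65% (56 to 73). Nucleotide excision and mismatch repair lay between, with 57.3% and 61.9% of peaks in introns. Over other genes 16.5% of peaks were at transcript ends and 68.0% in introns. These intervals cover counting error only. The shares were not matched for gene length, in which the pathways differed, so a difference between pathways cannot be told apart from one of length.

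**Figure D2:**
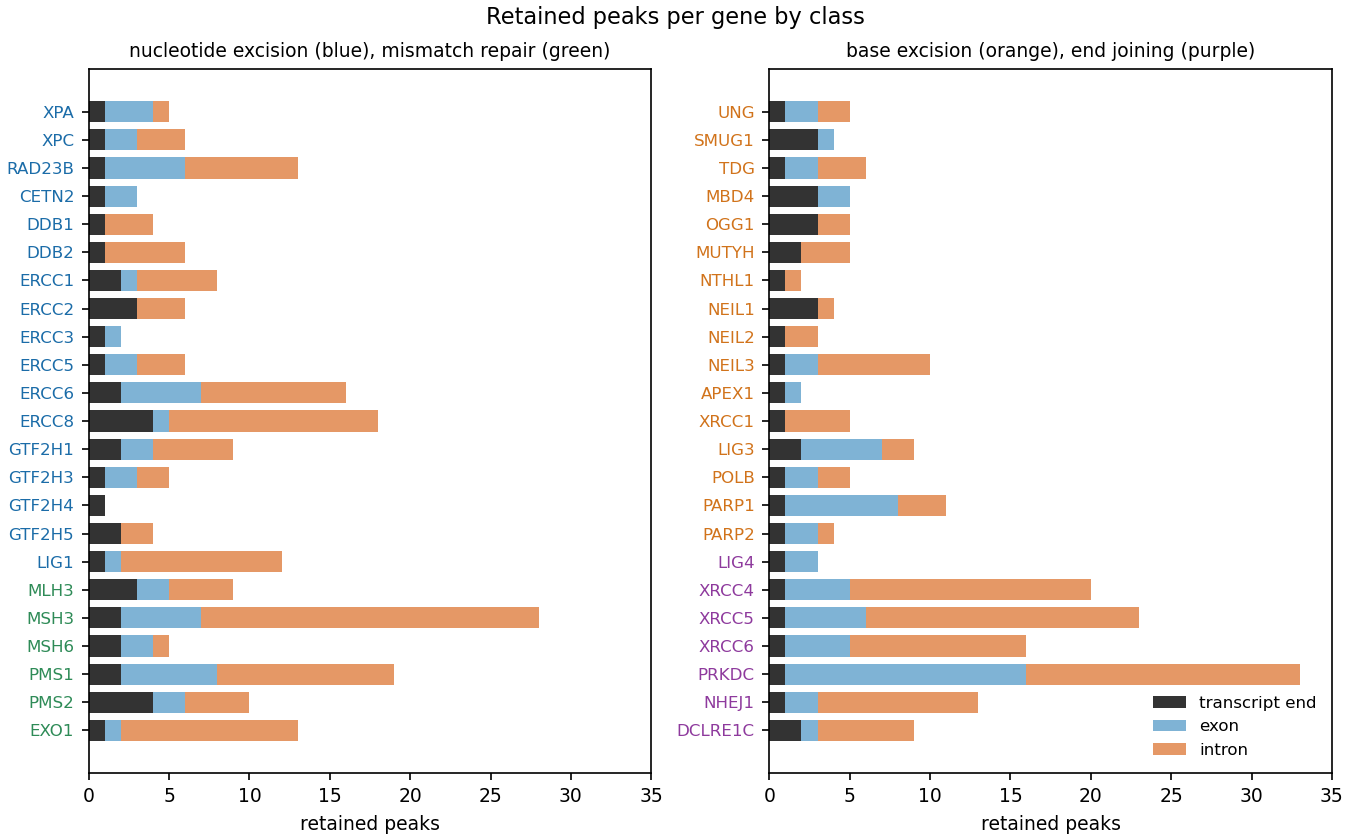
Number of retained peaks (x axis) in each of the 46 repair genes (y axis), divided into transcript end, exonic and intronic peaks, with gene names coloured by pathway. PRKDC had the most peaks (1 at its transcript end, 15 exonic and 17 intronic), and GTF2H4 had a single peak, at its transcript end.

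The sequence around the peaks depended on their class. Poly(A) signal motifs (any of 12 hexamers, AATAAA being the most common) were searched in the 100 bases before the 3′ end, and A-rich sequence (a run of 6 A, or 7 A among 10 bases) in the 50 bases that follow. The same windows were read on the opposite strand of each peak as a background, without the peaks that lay in a gene there. At transcript end peaks a motif was present on the gene's strand in 51 of 53 (96.2%) and on the opposite strand in 31 (58.5%), which differed by an exact two-sided McNemar test (20 peaks against 0 with a motif on 1 strand alone, adjusted p = 2.54e-06). At intronic peaks the counts were 121 of 217 (55.8%) and 64 (29.5%), also different (74 against 17, exact McNemar test, adjusted p = 2.39e-09). For A-rich sequence, counted before the removal of peaks, no difference between strands was detected at transcript ends, with 8 of 53 against 11 (exact McNemar test, adjusted p = 0.629). At intronic peaks it followed 182 of 235 (77.4%) on the gene's strand and 48 (20.4%) on the opposite strand (153 against 19, exact McNemar test, adjusted p = 1.33e-26). The size of this gap rests on the definition: when 25 A in a row, up to 3 of them mismatched, were required instead, 20 of the 235 had it against 2, a gap of 7.66 percentage points in place of 57 (exact McNemar test, adjusted p = 0.000161). The p-values were adjusted over these 4 tests, and peaks of 1 gene are not independent of each other. Transcript end peaks were picked by annotated ends on the gene's strand, so a motif gap there could be foreseen and says little about these genes. At transcript end peaks of other genes the motif shares were 89.2% on the gene's strand and 58.2% on the opposite strand. Intronic peaks of other genes held a motif in 54.7% and A-rich sequence in 81.1%.

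**Figure D3:**
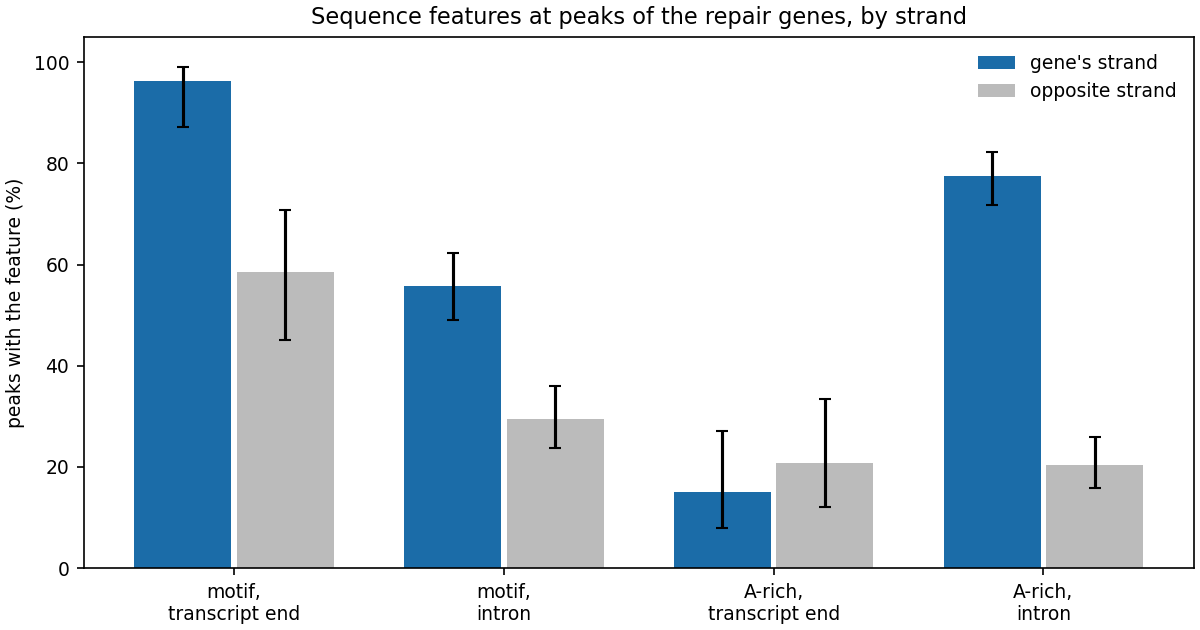
Share of peaks of the repair genes (y axis, %) with a poly(A) signal motif before, or A-rich sequence after, their 3′ end, at transcript end and intronic peaks, on the gene's strand (blue) and the opposite strand (grey). Bars show 95% Wilson intervals; A-rich sequence was the feature with the widest gap between strands at intronic peaks.

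The AATAAA hexamer was the motif found at 58.1% of transcript end peaks, 20.2% of exonic peaks and 27.6% of intronic peaks. Where present, its last copy began a median of 27, 24 and 25 bases before the 3′ end. Of the 232 intronic peaks, 49 were motif-only (21.1%, interval 16.4 to 26.8), against 16.3% over other genes (16.0 to 16.5), a difference that was not tested. The share over other genes pools genes of up to 2474 kb and is not matched for length. For motif-only counts among genes of similar length, the median percentile was 46.4 in repair genes and 45.8 in other genes. The 49 peaks lay in 22 genes (47.8%, against 45.9% of all genes). Their share was 26.8% in nucleotide excision, 27.3% in base excision, 19.2% in mismatch repair and 14.5% in end joining, with overlapping intervals. The letters GTCTCAAA, which precede the A run in 1 of the 3 A-rich sites shown (MUTYH), were found within 100 bases before or 50 bases after the 3′ end at 36 intronic peaks (15.5%) on the gene's strand and at 6 (2.59%) on the opposite strand. The same letters occurred at 13.3% of intronic peaks of other genes and at 1 of 74 transcript end peaks of the repair genes. They were chosen after the sequences had been seen.

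In nucleotide excision repair, the damage sensors differed. DDB2, which binds photoproducts in chromatin together with DDB1, had 5 intronic peaks where genes of its length (24.2 kb) had a median of 2, placing it at the 92.5th percentile. Of these, 4 lay in intron 3, which holds 70.3% of its intron sequence, with pileups of 19, 22, 11 and 18 against 29 at the transcript end. The peaks of 19 and 18 were motif-only, with an AATAAA, which at the peak of 18 followed a stretch of AAAT repeats. The transcript end peak of DDB2 overlapped that of ACP2 on the opposite strand and had no motif on the strand of DDB2. DDB1 had 3 intronic peaks, the same as the median, and all 3 were A-rich. XPC, the sensor of helix distortion, also had 3; its strongest peak within the gene lay in intron 10 (pileup 23, AATAAA, A-rich) and slightly exceeded its transcript end peak (21), but the gene XPC-AS1 runs through that intron on the other strand. RAD23B, the partner of XPC, had 7 intronic peaks, all A-rich, and its strongest peak was in the last exon ahead of the annotated end (pileup 42 against 17).

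ERCC8 and ERCC6 (also named CSA and CSB), which act at stalled RNA polymerase, both had peaks at annotated ends before the last exon of their longest transcript. This held for 8 of the 46 genes (17.4%) and 15.6% of all genes. ERCC8 had 13 intronic peaks (89th percentile, median 8 at its length of 78.6 kb), an early end peak with a pileup of 12 at chr5:60903363-60903681, and 3 other transcript end peaks with pileups of 14, 8 and 11. Its strongest intronic peaks reached 16, of which that in intron 4 was motif-only, with an AATAAA. In ERCC6, 2 peaks lay at annotated ends within intron 5 of the longest transcript, with pileups of 9 and 5, and no peak lay at the most distal end. The last exon held a peak of 15 with an ATTAAA. A further 4 peaks with no annotated end were in intron 5, which holds 23.8% of the intron sequence of ERCC6, and 2 of them, with pileups of 7 and 11, were motif-only, with an AATAAA.

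Of the 6 repair genes examined here that belong to the TFIIH helicase complex, ERCC2 alone lay above its median. ERCC3, a helicase of 36.9 kb with 14 introns, had 0 where genes of its length had a median of 4 (4.75th percentile), and only 2 retained peaks in all, an exonic one (pileup 23) and the transcript end peak (22). GTF2H5 and GTF2H3 had 2 each, both below their median of 3, GTF2H1 had 5, at its median, and GTF2H4, of 5.90 kb, had 0. Counting peaks with a motif alone, GTF2H5, GTF2H3 and GTF2H1 lay above their medians (66.8th, 69.0th and 76.5th percentile). ERCC2, the other helicase, had 3 (median 2), all A-rich, and an early end peak with a pileup of 10. Among the incision genes, ERCC5 was at its median with 3. ERCC1 had 5 (27.5th percentile), but 4 of these lay in a first intron that only long annotated transcripts contain, and the fifth, with a pileup of 36, sat at the transcript end of POLR1G on the opposite strand. XPA, the verifying scaffold protein, had 1 intronic peak (22.7th percentile) and an exonic peak of 33 that was followed by A-rich sequence, above the 19 at its transcript end.

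LIG1, the ligase that seals the repaired strand and joins Okazaki fragments, had 10 intronic peaks (88.5th percentile, median 6). Of these, 5 were motif-only, where genes of its length had a median of 1. The strongest was a peak in intron 7 with a pileup of 23, more than the 19 at the transcript end. That peak and 4 others lay within genes on the opposite strand. With such peaks left out, LIG1 kept 5 and fell to the 43.5th percentile. In intron 4 of LIG1, which no opposite-strand gene overlapped at these peaks, the pileups were 18 and 12. In both, the AATAAA stood within a stretch of AAAT repeats before the 3′ end. The check for A-rich sequence read only the bases after the 3′ end, so such peaks still count as motif-only.

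**Figure D4:**
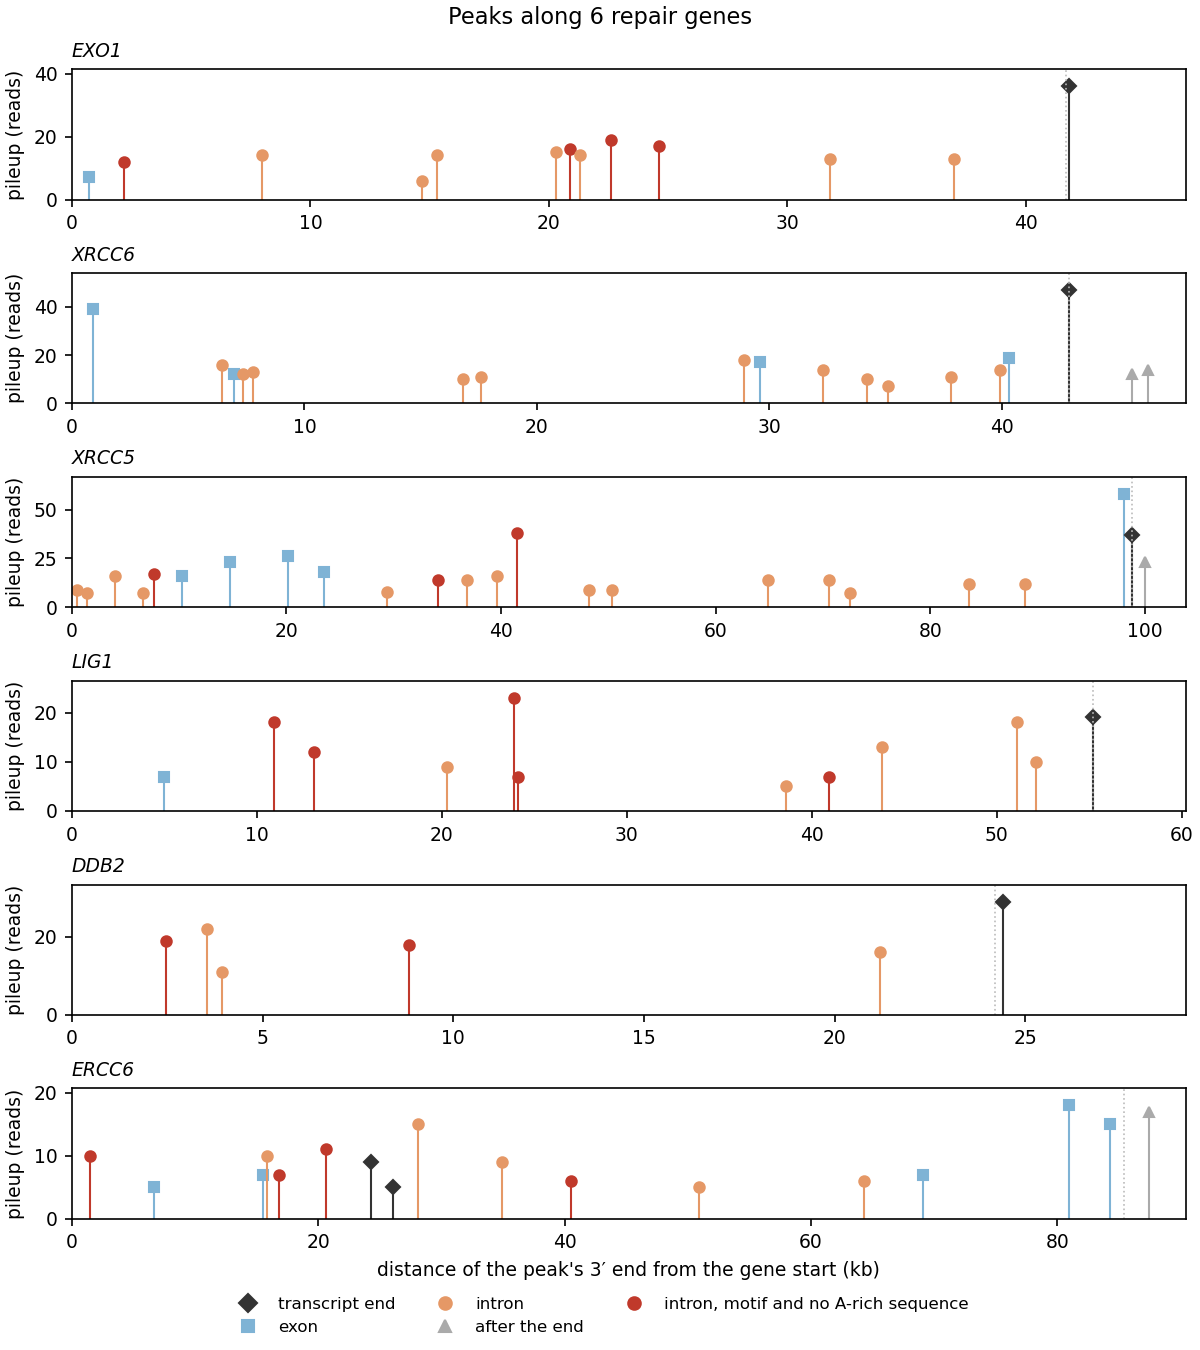
Pileup of retained peaks (y axis, reads or distinct read positions at the summit) against the distance of their 3′ end from the gene start in kb (x axis) for EXO1, XRCC6, XRCC5, LIG1, DDB2 and ERCC6. Marker shape and colour give the class, red marks motif-only intronic peaks, and the dotted line marks the annotated gene end; XRCC6 had no red peak and EXO1 had 4.

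In base excision repair, most glycosylase genes were short and had between 0 and 3 intronic peaks, NEIL3 having 7. MUTYH, which removes adenine opposite 8-oxoguanine, stood highest, with 3 in 11.3 kb (96.5th percentile, median 1) and pileups of 19, 15 and 19. The first 2 lay in intron 1, were A-rich and had no motif, and the third, in intron 6, was motif-only, with an ATTAAA. The strongest peak assigned to the end of MUTYH (pileup 53) was also at the end of HPDL on the opposite strand. NTHL1 had 1 (77.2nd percentile), OGG1 2, TDG 3, NEIL2 2 and NEIL3 7, all above their medians. With peaks in opposite-strand genes left out, NEIL3 kept 4 (median 5, 38.2nd percentile) and OGG1 kept 1, at its median. UNG had 2, below its median, and NEIL1 had 1, at its median. SMUG1 and MBD4 had 0, equal to the median of genes of their length, and had 3 transcript end peaks each. TDG had a motif-only intron 1 peak of 11, and 40 at its transcript end, which coincided with that of GLT8D2 on the opposite strand. In OGG1 and UNG, peaks at ends before the last exon of the longest transcript were the strongest of the gene, with pileups of 41 and 21. The OGG1 peak was also at the transcript end of CAMK1 on the opposite strand. The spans of OGG1 and UNG are 16.8 and 29.1 kb, but their canonical transcripts are only 7.46 and 13.4 kb long. These ends are therefore early only relative to the longest transcript. On the canonical transcript alone, OGG1 had 1 intronic peak (median 0, 77.0th percentile) and UNG had 1 (median 1, 52.5th percentile).

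Of the later enzymes, APEX1, the endonuclease, spans 2.58 kb and had no intronic peak. PARP1 and PARP2, which sense strand breaks, had 3 and 1. PARP1 lay at the 28th percentile and had 7 exonic peaks. The PARP1 intronic peaks with pileups of 9 and 17, in introns 2 and 13, were motif-only. XRCC1, the scaffold of strand break repair, had 4 intronic peaks, all A-rich. The strongest peak of XRCC1 was in intron 1 (pileup 21 against 17 at the transcript end), at the site shown above with an A run and no motif. POLB had 2 (25.5th percentile), both A-rich. LIG3 had 2 intronic peaks, both motif-only, with pileups of 12 and 7. Its exonic peaks reached 43, in sequence shared with RFFL on the opposite strand.

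In mismatch repair, EXO1 stood highest. It had 11 intronic peaks in 41.7 kb, where genes of its length had a median of 5 and an upper quartile of 6 (99th percentile). Its motif-only peaks, all with an AATAAA, numbered 4, with pileups of 12 in intron 3, 16 and 19 in intron 11 and 17 in intron 12, against 36 at the transcript end. No gene on the opposite strand overlapped any of them. EXO1 stayed between the 97.5th and 99.5th percentile under all 12 other settings tried. These settings recount the same merged peaks, and EXO1 was described because its percentile was high, so this is no separate support. MSH6, a lesion-recognising subunit, was at the other extreme, with 1 intronic peak and a median of 11 (5.25th percentile). Its span of 114 kb comes from a long annotated transcript. With the canonical transcript of 23.8 kb alone, the count was still 1, against a median of 2 (22.2nd percentile), and that peak coincided with a transcript end of FBXO11 on the opposite strand. Its transcript end peaks, with pileups of 31 and 20, also lay within FBXO11. MSH3, the largest gene of the pathway at 222 kb, had 21 intronic peaks with a median of 22, of which 20 were A-rich, and none exceeded a pileup of 13. The MutL genes PMS1, PMS2 and MLH3 had 11, 4 and 4, at the 58.5th, 51.2nd and 54.5th percentile. PMS1 had a peak at an early annotated end (pileup 15) and 32 at the distal end.

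In end joining, the Ku genes were highest. XRCC6, which encodes Ku70, had 11 intronic peaks in 42.9 kb (median 4, 99.2nd percentile), with pileups from 7 to 18 against 47 at the transcript end. All 11 were A-rich, 1 had a motif, and 5 had the letters GTCTCAAA. When only intronic peaks with a motif were counted, XRCC6 dropped to the 25.2nd percentile. XRCC5, which encodes Ku80, had 17 intronic peaks in 98.8 kb (median 11, 86.5th percentile), of which 13 were A-rich. The strongest, in intron 16 at the AATAAA site shown above, had a pileup of 38 and no A-rich sequence. It was close to the transcript end peak (37), whereas the last exon held a peak of 58 before the annotated end. Other motif-only XRCC5 peaks had pileups of 17 in intron 4 and 14 in intron 15.

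The remaining end-joining genes were at or below genes of similar length, except NHEJ1. LIG4, whose coding sequence lies in a single exon, had no intronic peak (20.2nd percentile). XRCC4, its partner and the longest gene at 276 kb, had 15 with a median of 25 (29.5th percentile). The XRCC4 transcript end peak had a pileup of 9, and an A-rich intron 3 peak without a motif had 16. PRKDC, the catalytic kinase subunit, had 17 intronic peaks (41.2nd percentile), 4 of them motif-only, and 15 exonic peaks. NHEJ1 had 10 (57.8th percentile), of which 8 lay in intron 5, which holds 82.1% of its intron sequence. DCLRE1C, the Artemis nuclease, had 6, at its median. Its strongest peak, counted as intronic with a pileup of 42, sat at the transcript end of SUV39H2 on the opposite strand.

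Neighbouring genes bear on several of these values, since reads from convergent genes cannot be told apart in an unstranded list. Of the 425 peaks, 57 also lay in a gene on the opposite strand. The strongest transcript end peak did so in 12 of 46 genes (26.1%, against 26.6% of all genes), namely 4 of nucleotide excision, 6 of base excision and 1 each of mismatch repair and end joining. Peaks after the end were found in 10 genes (21.7%, against 26.3% of all genes), and 11 of the 15 such peaks lay in another gene.

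The first intron of the longest transcript held 29 of the 232 intronic peaks of the repair genes (12.5%, interval 8.85 to 17.4). It held the same share of the intron length (12.5%). These shares pool all repair genes, so long genes weigh most, and they were not computed over other genes. The last intron held 23 (9.91%) and 11.9% of the length.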

How the data were processed

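Poly(A) 3′-seq libraries (8, in 4 groups of 2) were trimmed and mapped by the authors with STAR 2.5.1b to GRCh38, merged, and given to MACS2 2.1.1, which produced 1 pooled peak list; deepTools 2.5.4 and SAMtools are also named in the submitters' processing notes. The deposited values are, per peak, a fold enrichment (ratio of pileup to background) and the −log10 p-value and −log10 q-value, with 0 columns of values per library, so no depth per sample and no replicate error can be given. Of 153624 peaks, the 153021 of the assembled chromosomes were used.

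The pileup was recovered as the whole number that gives the deposited fold and −log10 p together (tolerance 0.0001 in −log10 p); it was unique for 99.9% of peaks and for all 425 in the repair genes. As in the study's method, peaks with a stretch of 25 A (at most 3 mismatches) in the 50 bases after the 3′ end and none of 12 motifs in the 100 bases before it were removed (8684 peaks, 20 of them in these genes). The remaining peaks were classed per gene against GENCODE 44 basic transcripts as transcript end (from 200 bases before to 600 after), exonic, intronic or within 4 kb after the end. Similar length means the 100 shorter and 100 longer genes nearest in span, with an intron and a transcript end peak; percentiles are mid-ranks. Comparisons with these genes are descriptions without a test. Strands were compared by exact McNemar tests with Benjamini-Hochberg adjustment over 4 tests. Intervals are 95% Wilson intervals and cover counting error only; the reads carry no molecular identifiers.

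The genes described in full were, per pathway, those with the highest and lowest percentiles and those whose strongest peak was intronic; others are named with their counts. The genes and lists were chosen with earlier results of these data known. Scripts were tested on simulated data. Python 3.11.15, numpy 2.4.6 and scipy 1.17.1 were used. Alternatives are described in the closing section; those on the canonical transcript and on motif tests without removal were added after seeing the data.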

Additional observations from a re-analysis of the deposited data

How the results depend on the processing

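Counts of intronic peaks stayed within 1.5 times the values given under every setting except those that select on sequence. Counting only peaks with a motif left 45 in nucleotide excision, 15 in base excision, 31 in mismatch repair and 38 in end joining. Requiring also no A-rich sequence left 19, 9, 10 and 11. Members above the median of genes of similar length stayed within the interval of the main share in all settings but 1. With 6 to 17 genes in a pathway these intervals are wide, so this check cannot show that the shares were stable. When a motif was required, members above rose from 6 to 9 of 17 in nucleotide excision. They fell from 7 to 4 of 16 in base excision and from 3 to 2 of 7 in end joining, and stayed at 2 of 6 in mismatch repair. The exception used all protein-coding genes with an intron as neighbours, including those without a transcript end peak. There the share in mismatch repair rose to 83.3%, the added neighbours having no such peak. Counts rose in the other pathways too, in end joining from 3 to 5 of 7. The 4 strand tests kept their side of the threshold under every alternative, including motif tests without the removal rule, which itself uses the motif. Their sizes moved: with 25 A and at most 3 mismatches in place of the A-rich definition, the gap between strands at intronic peaks fell from 57 to 7.66 percentage points, and at transcript ends it went from -5.66 to 0, with no such stretch on either strand. With AATAAA and ATTAAA only, the motif gap at transcript ends was 56.6 in place of 37.7. For single genes the settings mattered more: XRCC6 and NEIL2 fell below their medians and GTF2H3, GTF2H5 and LIG3 rose above theirs when a motif was required, LIG1 and NEIL3 fell below when peaks in opposite-strand genes were left out, and ERCC1 reached its median on the canonical transcript alone. No paired analysis was possible because the list pools all libraries and holds no value per replicate; for the same reason no replicate could be left out. A peak's absence is a limit of the merged depth and of the caller's threshold, not evidence that a site is unused.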
